A study of Mus musculus with 16 samples.

Results

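The Schwann cell and myelin genes Mbp, Pmp22, Prx, S100b, Sox10 and Egr2 were examined in mouse quadriceps muscle through every array probe that the platform annotation pairs with them. These 6 genes were matched by 7 of the 25697 probes: 3 for Mbp, 2 for Pmp22, 1 for S100b, 1 for Egr2, and 0 for Prx and for Sox10. Total RNA from adult mice of the FVB/n background was hybridised to 16 Illumina bead arrays, 4 for each group. They comprised HSALR transgenic mice injected with antisense oligo (ASO) 445236, HSALR transgenic mice injected with ASO 190401, HSALR transgenic mice injected with saline, and wild-type (WT) mice injected with saline, all by subcutaneous injection biweekly for 4 weeks. HSALR mice carry the human gene for skeletal actin with an expanded CUG repeat, expressed in skeletal muscle fibres, and model myotonic dystrophy in that tissue, not in nerve.

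Schwann cells are the glia of peripheral nerve. Myelinating Schwann cells wrap an axon in compact myelin, whose proteins include MBP and PMP22, and the transcription factors SOX10 and EGR2 switch the myelin genes on. After nerve injury these cells lose myelin gene expression and turn on genes such as Ngfr, Ncam1, Gdnf and Jun. A piece of quadriceps holds intramuscular nerve branches as a small part of its mass, so a lower level in such a sample can come from fewer cells of a type or from less RNA per cell, which cannot be told apart here. Several of these genes are not exclusive to Schwann cells: Pmp22 was first described as a growth-arrest gene of mouse fibroblasts, Egr2 is also an immediate early gene, and Ncam1, Jun and Gdnf can be made by muscle fibres.

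Between 10835 and 11700 probes lay above background on an array, and arrays of a group correlated at 0.977 to 0.991; precision is limited by having 4 arrays in a group. All 7 skeletal muscle fibre markers listed were above background, and Acta1, the endogenous skeletal actin, had a normalized log2 intensity of 14.86 ± 0.11 in HSALR saline muscle against 14.93 ± 0.06 in WT muscle (SD, n = 4 each; adjusted p = 0.405). The labels list separate samples without naming animals, and p-values here reflect spread among arrays, which may be technical. Arrays of the ASO 445236 and HSALR saline groups lay on 1 chip and those of the ASO 190401 and WT groups on another. Only ASO 445236 with HSALR saline, and ASO 190401 with WT, can be compared within a chip; in the other 4 comparisons chip and group cannot be told apart. A probe is called higher or lower below where its Benjamini-Hochberg adjusted p over all 12364 probes tested was under 0.05 in limma's moderated test.

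Of the 4 genes measured, Pmp22 was the one called in every comparison with WT, so the sequence before its annotated starts is given here. RefSeq (GRCm38.p6) lists 4 starts for Pmp22 on the plus strand of chromosome 11, and the deposited files do not say which of them gave the RNA that the probes measured. The 250 bases before each of 3 starts whose windows do not overlap read, 5′ to 3′:
Pmp22 chr11:63128732-63128981: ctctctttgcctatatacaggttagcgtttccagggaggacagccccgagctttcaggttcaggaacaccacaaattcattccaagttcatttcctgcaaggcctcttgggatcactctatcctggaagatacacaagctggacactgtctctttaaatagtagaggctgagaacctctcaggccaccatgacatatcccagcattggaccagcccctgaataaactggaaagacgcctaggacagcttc
Pmp22 chr11:63131207-63131456: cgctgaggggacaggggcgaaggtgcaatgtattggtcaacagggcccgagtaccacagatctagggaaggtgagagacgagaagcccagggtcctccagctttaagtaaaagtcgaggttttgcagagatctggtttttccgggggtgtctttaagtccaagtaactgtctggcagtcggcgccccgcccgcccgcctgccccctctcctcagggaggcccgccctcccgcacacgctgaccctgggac
Pmp22 chr11:63132319-63132568: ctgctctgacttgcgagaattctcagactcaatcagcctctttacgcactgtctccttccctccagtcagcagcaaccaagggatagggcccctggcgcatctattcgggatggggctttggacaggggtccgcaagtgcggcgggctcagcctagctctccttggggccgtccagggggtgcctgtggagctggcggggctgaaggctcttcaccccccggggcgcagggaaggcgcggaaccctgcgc
The window before the remaining start overlaps the last of these by 16 bases. The core of EGR binding sites, GTGGGCG, was searched on both strands in all 4 windows, and 7.02% of the 32851 promoter windows of the same length in the table hold it. The same was done for a SOX core, ACAAAG, which 16.5% of those windows hold. A variant of the SOX core, ACAATG, is held by 10.7%. All 4 Pmp22 windows held 0 matches to any of these motifs, so no letter is in capitals. The absence of these letters from the windows says nothing about binding of either factor to Pmp22.

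Of the 7 probes, 5 passed the filter for testing (detected, with p under 0.05 against background, on 4 or more arrays). Pmp22 ILMN_1228535, Mbp ILMN_2737200 and Egr2 ILMN_2623983 were above background on 16 of 16 arrays. Pmp22 ILMN_2661299 was above background on 3 of 4 ASO 445236 arrays, 2 of 4 ASO 190401 arrays, 3 of 4 HSALR saline arrays and 4 of 4 WT arrays. Its median detection p-values were 0.0269 with ASO 445236, 0.0896 with ASO 190401, 0.0288 with saline and 0.00125 in WT muscle. Mbp ILMN_3011353 passed on 4, 1, 1 and 3 arrays of the same groups, with median detection p-values of 0.0069, 0.0858, 0.0514 and 0.0244. Egr2 lay closest to background with ASO 445236 (median 0.0219), against 0.00627 with ASO 190401, 0.00626 with saline and 0.00564 in WT muscle. Pmp22 ILMN_1228535 had a detection p of 0 on every array. The third Mbp probe, ILMN_3081854, was above background on 0 of 16 arrays, with intensities of 0.1 to 16.5 with ASO 445236, 8.1 to 17.1 with ASO 190401, -3.1 to -0.3 with saline and -3.5 to 22.1 in WT muscle.

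S100b, a calcium-binding protein used to mark Schwann cells and made by adipocytes too, was above background on 0 of 16 arrays, with detection p-values between 0.112 and 0.906. Its intensities ran from -8.4 to 0.5 with ASO 445236, from -11 to -1.8 with ASO 190401, from -13.8 to 12 with saline and from -8.8 to -0.5 in WT muscle. These readings give no fold change in any comparison. With S100b below background, and Sox10 and Prx matched by 0 probes, Schwann cell genes were read mainly through Mbp, Pmp22 and the further genes described below. Such readings do not measure the Schwann cell content of these samples.

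Pmp22, which encodes a tetraspan membrane protein of compact myelin, was lower in all 3 HSALR groups than in WT muscle. The deposited intensities of probe ILMN_1228535 were 897.3, 698.5, 786 and 992 in HSALR muscle given ASO 445236, and 667.2, 792.3, 1059 and 547.8 in HSALR muscle given ASO 190401. In saline-treated HSALR muscle they were 616.3, 478.2, 477.5 and 479.6, and in WT muscle 1318.5, 937.7, 1181.8 and 1105.3. Each WT array exceeded every HSALR saline and ASO 445236 array except for the overlap of 937.7 with 992, and 1 ASO 190401 array (1059) reached into the WT range. Normalization removed that overlap: the log2 levels were 9.66 ± 0.17 with ASO 445236, 9.35 ± 0.20 with ASO 190401, 9.33 ± 0.13 with saline and 10.24 ± 0.25 in WT (mean ± SD, n = 4 each), with the lowest WT array at 10.05 and the highest HSALR array at 9.89. From highest to lowest the groups ran WT, ASO 445236, ASO 190401 and HSALR saline, and the last pair lay within its spread.

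**Figure D1:**
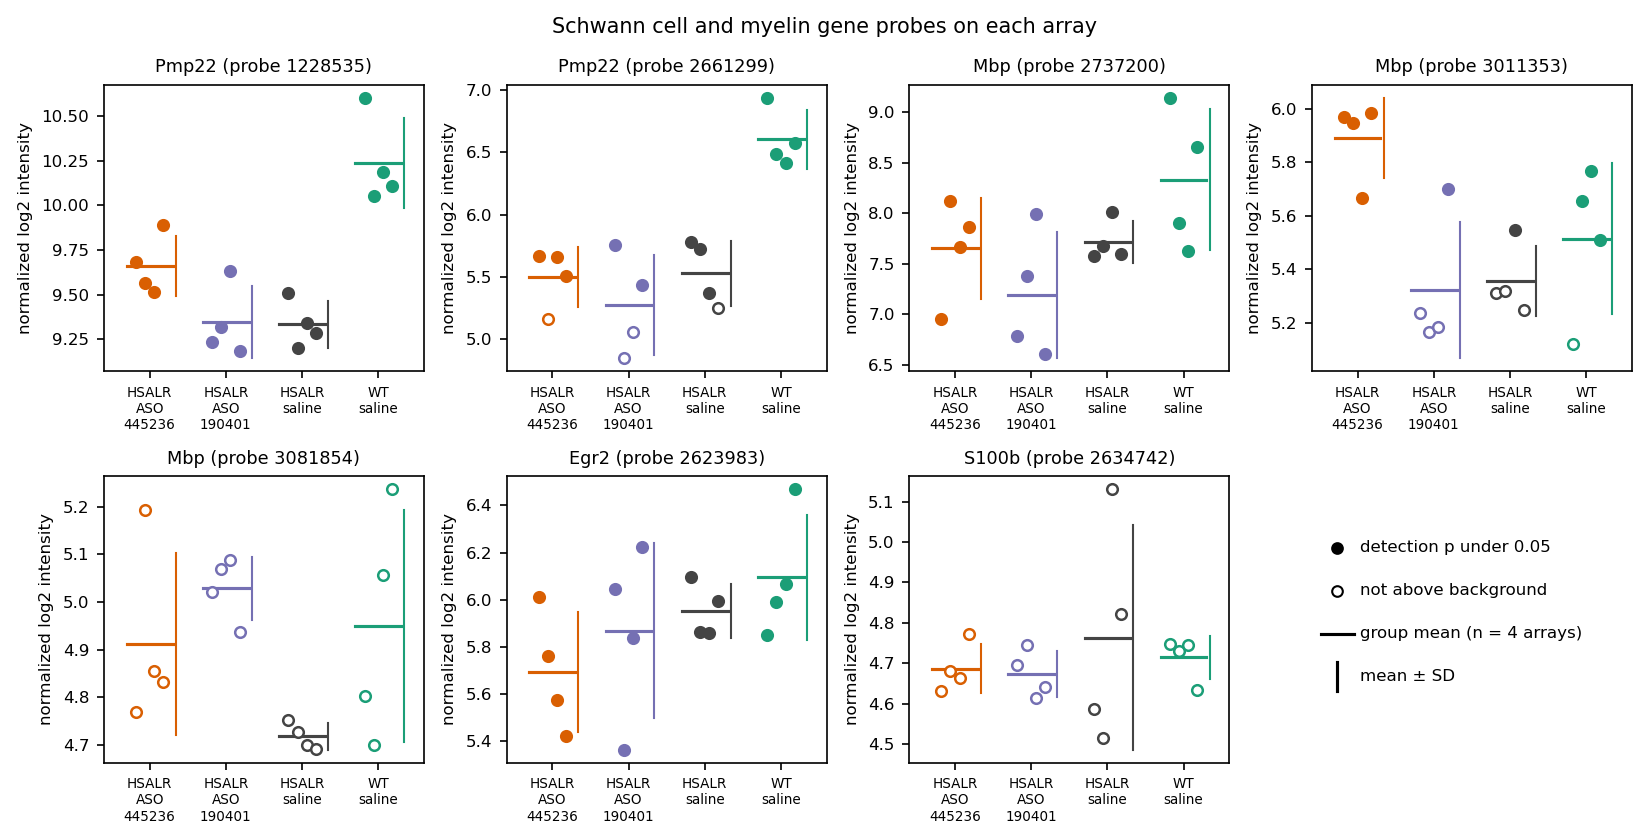
Normalized log2 intensity (vertical axis) of the 7 probes of Mbp, Pmp22, Egr2 and S100b on each of 16 arrays, by group; filled points had a detection p under 0.05, horizontal lines are group means and vertical lines mean ± SD (n = 4), and vertical scales differ between panels. WT arrays lie above all 12 HSALR arrays for both Pmp22 probes, while Egr2 groups overlap, ASO 445236 arrays lie above saline arrays for Mbp ILMN_3011353, and all S100b points are open.

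The fall in saline-treated HSALR muscle against WT was 0.90 on the log2 scale, a difference of -0.90 ± 0.12 (SE) with adjusted p = 3.13e-05. In this comparison 25.9% of all probes were called and 12.7% were called lower, so a lower call was not rare. ASO 190401 muscle differed from WT by -0.89 ± 0.12 (adjusted p = 0.000136), and this comparison lies within a chip, where 9.13% of probes were called and 4.81% were called lower. ASO 445236 muscle differed from WT by -0.57 ± 0.12 (adjusted p = 0.00721), against 9.72% of probes called and 4.45% called lower. These 3 differences share the same 4 WT arrays. The groups did not overlap in any of the 3, as for 25.4%, 13.3% and 12.7% of all probes in the HSALR saline, ASO 190401 and ASO 445236 comparisons with WT.

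Probe ILMN_2661299 of Pmp22 gave differences in the same direction at signals near background. Its intensities were 37.8, 15.4, 36.5 and 29.8 with ASO 445236, 41.7, 4.5, 15.7 and 25.7 with ASO 190401, 34.1, 31.1, 18.2 and 15.3 with saline, and 101.1, 69, 78 and 85.2 in WT muscle. Every WT array was brighter than every HSALR array. On the log2 scale the differences from WT were -1.11 ± 0.20 with ASO 445236 (adjusted p = 0.0019), -1.33 ± 0.20 with ASO 190401 (adjusted p = 0.000275) and -1.08 ± 0.20 with saline (SE; adjusted p = 0.000589). The probes tell of 1 gene and of the same RNA, so they are not independent evidence. Within groups their array-to-array deviations correlated weakly (r = 0.11, rho = 0.02, 16 arrays).

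Treatment of HSALR mice did not bring a called change in Pmp22. Probe ILMN_1228535 differed between ASO 445236 and saline by 0.33 ± 0.12 (95% interval 0.07 to 0.59, adjusted p = 0.0976), although all 4 ASO 445236 arrays lay above the 4 saline arrays, as the groups did for 18.6% of probes, and 12.1% of probes were called. This value passed the threshold when arrays were scaled to equal medians (0.55, or 0.39 relative to the median of all probes; adjusted p = 0.0111) or when only the 2 groups compared were fitted (adjusted p = 0.0454), in a range of 0.0111 to 0.516 over all alternatives. ASO 190401 differed from saline by 0.01 (interval -0.25 to 0.27, adjusted p = 0.964; 13.9% of probes called). ASO 445236 minus ASO 190401 was 0.32 (interval 0.05 to 0.58, adjusted p = 0.205; 2.53% of probes called). For ILMN_2661299 the differences were -0.03 (interval -0.45 to 0.39) for ASO 445236 against saline -0.26 (interval -0.68 to 0.16) for ASO 190401 against saline and 0.23 (adjusted p = 0.631) for ASO 445236 against ASO 190401.

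**Figure D2:**
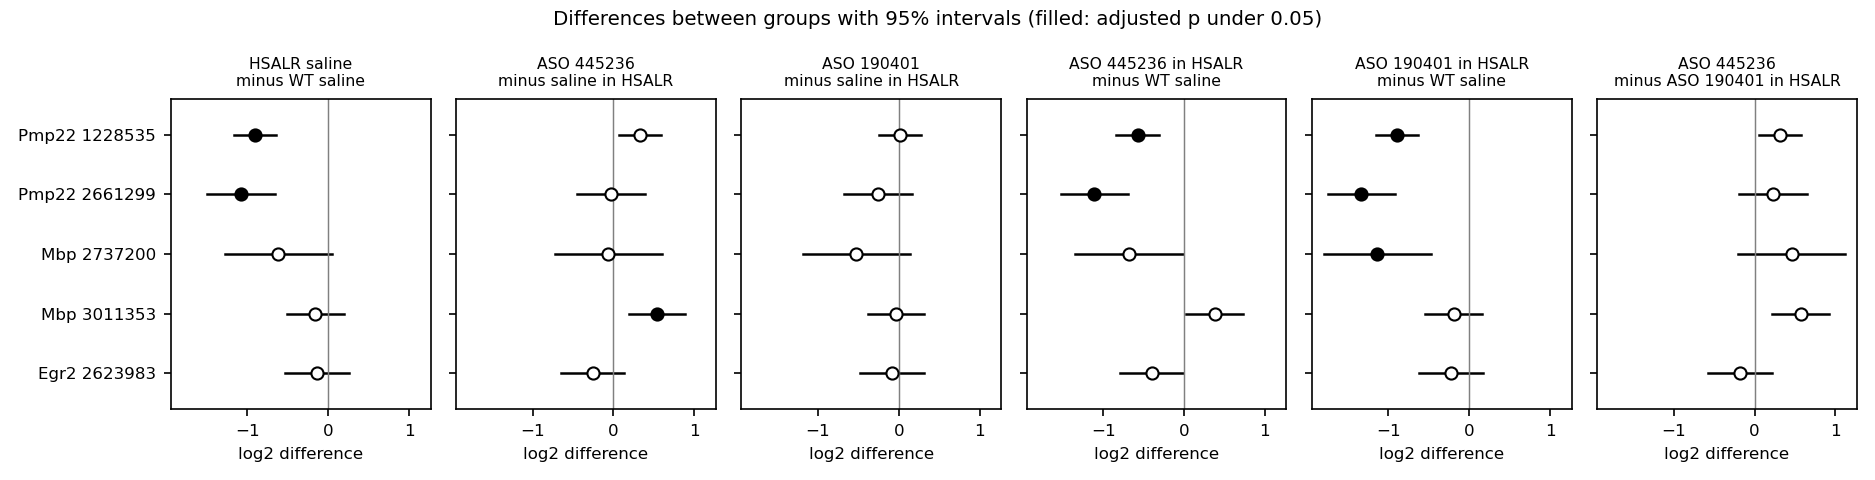
Log2 differences (horizontal axis, first group named minus second) of the 5 tested probes in 6 comparisons; points are limma estimates from 16 arrays, bars their 95% intervals, and filled points have an adjusted p under 0.05. Both Pmp22 probes lie left of 0 with intervals clear of it in the 3 comparisons with WT, and the Egr2 probe is filled in none.

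Fibroblasts also express Pmp22, and their markers moved in several of the same comparisons. Of 9 fibroblast markers, 7 were lower in HSALR saline than in WT muscle and 7 were lower with ASO 190401 than in WT, against 3 with ASO 445236. Of all genes, read by their brightest probe, 12.8%, 5.12% and 4.65% were called lower in these 3 comparisons. The summed intensity of the 9 markers, before normalization, ranged from 14816.4 to 20112.7 with ASO 445236 and from 14304.3 to 19353.6 with ASO 190401. It ranged from 10455.7 to 12898.4 with saline and from 18553.8 to 23807.7 in WT muscle. Before normalization the saline arrays were dimmer over all probes, with a 75th percentile of at most 120.1, against at least 128.75 on other arrays. After normalization 0 of the 9 were called higher and 2 lower with ASO 190401 than with saline (median log2 difference -0.31). Of all genes 14.9% were called there. Pi16, a marker of adventitial fibroblasts, was at -1.20 ± 0.18 in HSALR saline minus WT (adjusted p = 6.16e-05), and Dpt, which encodes a matrix protein, at -1.01 ± 0.19 (adjusted p = 0.00059). With ASO 445236 against saline 3 of the 9 rose, Pi16 by 1.06 and Dpt by 0.82 (adjusted p = 0.000462 and 0.00698), where 6.56% of genes were called higher. The part of fibroblasts in the Pmp22 differences was not tested. Of the perineurial markers, which mark the sheath around nerve bundles, 3 of 5 were lower and 1 higher in HSALR saline than in WT muscle.

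Mbp, which encodes the protein that seals the cytoplasmic faces of compact myelin, varied widely from array to array within most groups at its brightest probe. Its probe ILMN_2737200 had intensities of 116.2, 252, 203.5 and 230.5 with ASO 445236 and 106.5, 187.1, 322.8 and 77 with ASO 190401. The intensities with saline were 149.5, 156.7, 180.3 and 138.1 in HSALR muscle and 485.2, 200.1, 195.9 and 405.3 in WT muscle. The HSALR saline arrays were tight, while 2 of the WT arrays were far brighter than the others and the ASO 190401 arrays spanned both ends. The mean log2 levels were 7.65 ± 0.50, 7.19 ± 0.62, 7.71 ± 0.20 and 8.33 ± 0.69 for ASO 445236, ASO 190401, HSALR saline and WT (SD, n = 4 each), and from highest to lowest the groups ran WT, HSALR saline, ASO 445236 and ASO 190401, with each neighbouring pair closer than the larger SD of the pair.

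For this Mbp probe only ASO 190401 against WT was called, at -1.14 ± 0.32 (SE; interval -1.80 to -0.48, adjusted p = 0.028), with overlapping groups. Leaving out ASO 190401 replicate 1 ended the call (-1.004, adjusted p = 0.0874), as did leaving out its replicate 4 (-0.95, adjusted p = 0.0957), WT replicate 1 (-0.87, adjusted p = 0.0823) or WT replicate 4 (-1.03, adjusted p = 0.0749). HSALR saline differed from WT by -0.62 (interval -1.28 to 0.05, adjusted p = 0.164) and ASO 445236 from WT by -0.68 (interval -1.34 to -0.02, adjusted p = 0.192). Against saline, ASO 445236 stood at -0.06 (interval -0.73 to 0.60) and ASO 190401 at -0.52 (interval -1.18 to 0.14), and the oligos differed by 0.46 (interval -0.20 to 1.12).

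Probe ILMN_3011353 of Mbp ordered the groups differently. Its intensities were 51, 42.9, 36.8 and 50.1 with ASO 445236, 21.7, 20.6, 21.4 and 34.6 with ASO 190401, 19.3, 18.8, 22.5 and 15.3 with saline, and 15.6, 33.2, 43.8 and 32.6 in WT muscle. In these intensities all 4 ASO 445236 arrays were brighter than every other HSALR array, whereas after normalization the highest ASO 190401 array (log2 5.70) passed the lowest ASO 445236 array (5.67). ASO 445236 was higher than saline by 0.54 ± 0.17 (SE; adjusted p = 0.0422) and stood at 0.57 above ASO 190401 (interval 0.22 to 0.92, adjusted p = 0.0795). The call against saline stood without ASO 445236 replicate 3 or without HSALR saline replicate 3, and was lost without any 1 of the other 6 arrays (lowest difference 0.50, highest adjusted p = 0.105). In the other 4 comparisons this probe was not called, at -0.16 for HSALR saline and -0.19 for ASO 190401 against WT, 0.38 for ASO 445236 against WT and -0.03 for ASO 190401 against saline.

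The 2 Mbp probes moved in opposite directions from array to array, with r = -0.59 and rho = -0.49 between their deviations from the group means (16 arrays). Within the chip holding HSALR saline and ASO 445236 arrays r was 0.20, and within the other chip it was -0.83 (8 arrays each). The Mbp gene also gives rise to golli transcripts, which in mice are made by immune and other cells outside nerve; the files used here do not say which transcripts each probe matches. Where ILMN_3011353 was higher, with ASO 445236 against saline, 6 of 8 myeloid markers were higher too, against 6.56% of all genes called higher. Among them were Ms4a7 (2.58 ± 0.30, adjusted p = 1.08e-05) and Adgre1 (1.9998 ± 0.31, adjusted p = 0.000222). Other probes of these genes gave smaller differences, 0.53 for Ms4a7 ILMN_3019158 (adjusted p = 0.0425) and 1.24 for Adgre1 ILMN_2847787 (adjusted p = 0.0014). The summed intensity of the 8 markers, before normalization, ran from 1968.6 to 3709 with ASO 445236 and from 1015.5 to 1668.3 with ASO 190401. It ran from 434.2 to 1132.8 with saline, whose arrays were dimmer over all probes, and from 958.7 to 2499.5 in WT muscle. The part of these markers in the Mbp reading was not tested.

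Egr2, the zinc finger factor that drives the switch to myelination, was not called in any of the 6 comparisons by limma, and at an unadjusted p under 0.05 it passed in ASO 445236 against WT alone (unadjusted p = 0.0463, adjusted p = 0.194). Its intensities were 53.2, 35.7, 33.2 and 26.6 with ASO 445236, 54.9, 29.3, 52.8 and 55.7 with ASO 190401, 45.9, 35.7, 31.2 and 37.5 with saline, and 40.8, 45.6, 58.1 and 76.8 in WT muscle. All 4 groups overlapped in these readings, which stand little above background. HSALR saline differed from WT by -0.14 (interval -0.54 to 0.25, adjusted p = 0.62) and ASO 445236 from WT by -0.40 (interval -0.80 to -0.01). Against saline the differences were -0.26 with ASO 445236 (interval -0.65 to 0.13) and -0.08 with ASO 190401 (interval -0.48 to 0.31). ASO 190401 stood at -0.23 against WT (adjusted p = 0.51), and ASO 445236 at -0.17 against ASO 190401 (adjusted p = 0.704). In the comparison of HSALR saline with WT, 5 of 9 other immediate early genes were higher, against 13.9% of all 8725 genes called higher by their brightest probe. Atf3, a stress-induced factor, rose by 2.67 ± 0.29 (adjusted p = 1.64e-06) and Fos, a partner of JUN in AP-1, by 1.74 ± 0.50 (adjusted p = 0.015). The Fos call was lost without replicate 1 of the HSALR saline group (1.45, adjusted p = 0.0553) or its replicate 2 (1.53, adjusted p = 0.0525), and with robust fitting (adjusted p = 0.0567). The EGR2 relatives Egr1 (0.16, adjusted p = 0.841) and Egr3 (0.11, adjusted p = 0.724) were not called. Egr1 stood at -0.39 without WT replicate 1.

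Of other genes of the myelin sheath, the 6 that could be tested were called in 0 comparisons by their brightest probe. A second Nfasc probe, ILMN_2620223, was called higher by limma with ASO 190401 than in WT (0.65, adjusted p = 0.0248). A list of 18 further myelin genes was read by the brightest probe of each. Of these, 15 were on the array and 6 passed the filter (Mag, Cnp, Pmp2, Drp2, Nfasc and Fa2h). Pmp2, Fa2h, Mag and Drp2 were above background on 7, 13, 14 and 15 of 16 arrays. Apart from Cnp, their intensities reached at most 89.4 (Drp2 with ASO 190401). At such readings a lack of calls does not show that these genes were unchanged. In limma 0 of the 6 were called in each comparison, and at an unadjusted p under 0.05 there was 1 in ASO 445236 against saline, 1 in ASO 190401 against saline, 1 in ASO 190401 against WT and 0 in the rest. Of all genes 26.7% were called in HSALR saline against WT, 13% and 14.9% in ASO 445236 and ASO 190401 against saline, 10.5% and 9.87% in the same oligos against WT, and 2.79% between the oligos. Under median scaling Cnp, an enzyme of myelin membranes, was called higher with ASO 190401 than with saline (0.47, adjusted p = 0.0314). That scaling moved the median of all probes there to 0.17. With quantile normalization Cnp stood at 0.31 (adjusted p = 0.217), and its second probe, ILMN_2802263, at -0.17 (adjusted p = 0.591). For HSALR saline minus WT the median difference of the 6 genes was 0.06, against -0.02 over all genes. The smallest p-values there belonged to Nfasc (0.19, adjusted p = 0.48), whose product clusters channels at nodes, and Drp2 (0.19, adjusted p = 0.502), which joins PRX at Schwann cell appositions. In ASO 190401 against WT, where both Pmp22 probes and an Mbp probe were lower, Drp2 stood at 0.53 (adjusted p = 0.101). Gjc3, Cldn19, Pllp, Ncmap, Mpzl2 and Gal3st1 were above background on 0 of 16 arrays, and Cadm4 was matched by 0 probes.

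Of 14 genes of immature and repair Schwann cells 5 were tested, and 3 of them (Ngfr, Ncam1 and Gdnf) were higher in HSALR saline than in WT muscle, with a median of 1.34 over the 5 against -0.02 over all genes, 13.9% of which were called higher. Ngfr, the low-affinity neurotrophin receptor, had intensities of 65.2, 67.5, 96.4 and 60.4 with ASO 445236, 156.5, 137.9, 146.2 and 37.3 with ASO 190401, 319.9, 420.1, 317.3 and 367.1 with saline, and 33.5, 44.7, 25 and 51.9 in WT muscle. The HSALR saline arrays stood above all other arrays, and a single ASO 190401 array fell within the WT range. Ngfr was higher in HSALR saline than in WT muscle by 3.10 ± 0.25 (adjusted p = 3.31e-08), and lower than saline by 2.42 with ASO 445236 (-2.42 ± 0.25, adjusted p = 2.22e-06; 13% of genes called) and by 2.06 with ASO 190401 (-2.06 ± 0.25, adjusted p = 2.1e-05; 14.9% of genes called). It was also higher than WT with ASO 190401 (1.04, adjusted p = 0.0113; 9.87% of genes called), with 0.68 for ASO 445236 against WT (adjusted p = 0.091; 10.5% of genes called) and -0.36 between the oligos (adjusted p = 0.502; 2.79% of genes called). The Ngfr call for ASO 190401 against WT was lost with only those groups fitted (adjusted p = 0.0591), and ASO 445236 against WT was called under median scaling (0.75, adjusted p = 0.046).

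**Figure D3:**
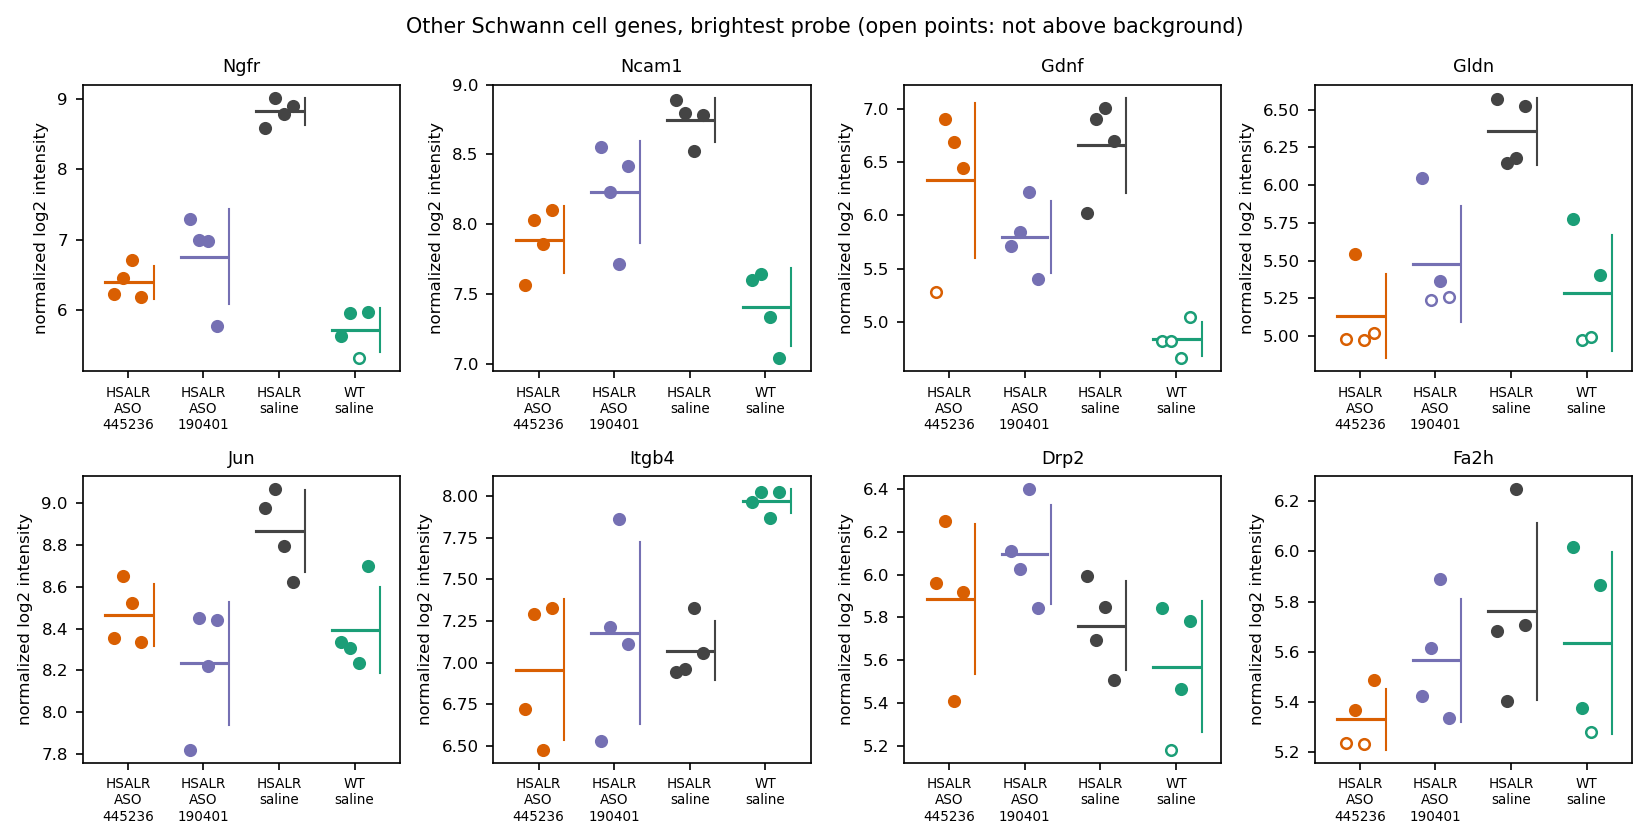
Normalized log2 intensity (vertical axis) of the brightest probe of 8 further Schwann cell genes on each array, by group, with lines and points as for the 7 probes above and open points for arrays not above background. HSALR saline arrays stand highest for Ngfr, all 4 WT points are open for Gdnf, and groups overlap for Drp2 and Fa2h.

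Ncam1, a neural adhesion molecule also found on denervated muscle fibres, was higher in HSALR saline than in WT muscle by 1.34 ± 0.17 (adjusted p = 1.47e-05), higher with ASO 190401 than in WT by 0.82 (adjusted p = 0.00503), and lower with ASO 445236 than with saline (-0.86, adjusted p = 0.00246). Its second probe, ILMN_3102825, did not follow, at -0.42 for HSALR saline minus WT (adjusted p = 0.107) and -0.70 for ASO 445236 minus WT (adjusted p = 0.0225). As a mean of both probes the Ncam1 difference of ASO 190401 from WT was 0.30 and not called (adjusted p = 0.234). Gdnf, a glial growth factor, was above background on 4 of 4 HSALR saline arrays and 0 of 4 WT arrays, and was at least 2.45-fold higher in HSALR saline (adjusted p = 0.000113), at least 1.94-fold higher with ASO 445236 (adjusted p = 0.00291) and at least 1.34-fold higher with ASO 190401 (adjusted p = 0.0406), each against WT. The call with ASO 190401 was lost without any of its replicates 1, 2 and 3 or any of the 4 WT replicates (lowest log2 difference 0.82, highest adjusted p = 0.115). These bounds set the WT mean at the lowest signal among probes above background on each array. Gfap, Cdh19, Foxd3, Cdh2, Gap43 and Shh were above background on 0 of 16 arrays, so these 6 gave no reading here.

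Among the regulators of Schwann cell state, 6 of 16 were tested. Jun, which directs the repair program, rose by 0.47 ± 0.14 in HSALR saline against WT (adjusted p = 0.0212) and was lower with ASO 190401 than with saline (-0.63 ± 0.14, adjusted p = 0.00616). This rise is the same reading already counted among the immediate early genes above. The rise of Jun was lost its call on leaving out replicate 1 or 2 of the HSALR saline group or replicate 2 or 3 of the WT group (lowest 0.40, highest adjusted p = 0.0727), and the fall of Jun with ASO 190401 lost its call under median scaling (-0.40, adjusted p = 0.0655). Nab1, a corepressor that binds EGR2, was called lower with ASO 190401 than with saline by its brightest probe (-0.47, adjusted p = 0.0437), while its other 3 tested probes stood at 0.33, -0.06 and 0.10. Its call held in 1 of 8 fits that left out an array (without ASO 190401 replicate 1) and reached an adjusted p of 0.113 in the others. The mean over the Nab1 probes was -0.02 (adjusted p = 0.92). Of 13 genes that carry signals between axon and Schwann cell, 6 were tested. Gldn, which encodes the nodal protein gliomedin, was higher in HSALR saline than in WT (1.07 ± 0.22, adjusted p = 0.00115) and lower than saline with ASO 445236 (-1.23, adjusted p = 0.00078) and with ASO 190401 (-0.88, adjusted p = 0.0102). It was above background on 4 of 4 HSALR saline arrays, 2 of 4 WT, 1 of 4 ASO 445236 and 2 of 4 ASO 190401 arrays. The lower group in each of these differences thus lay near background. The Gldn call with ASO 190401 was lost in the authors' deposited matrix (-1.21, adjusted p = 0.103), and a larger offset of 50 gave -0.56 with the call kept (adjusted p = 0.00589). Itgb4, an integrin of Schwann and perineurial cells, was lower than WT with ASO 445236 (-1.01, adjusted p = 0.00752), with ASO 190401 (-0.79, adjusted p = 0.0306) and with saline (-0.90, adjusted p = 0.00569). The call with ASO 190401 was lost without its replicates 1, 2 or 4 or WT replicates 2, 3 or 4 (smallest difference -0.57, highest adjusted p = 0.108). A second Itgb4 probe, ILMN_2634689, was not called for HSALR saline minus WT (-0.41, adjusted p = 0.123). Against WT this probe was lower with ASO 445236 (-0.74, adjusted p = 0.0195) and with ASO 190401 (-0.72, adjusted p = 0.0232).

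Axon markers gave few readings. Of 10 listed genes 2 were tested. Uchl1, an abundant neuronal ubiquitin hydrolase, was higher than WT by 1.75 ± 0.23 with ASO 445236, by 1.80 ± 0.23 with ASO 190401 and by 2.27 ± 0.23 with saline (adjusted p = 0.000117, 5.2e-05 and 9.08e-07). Stmn2, a neuronal tubulin-binding protein, went the other way against WT in each HSALR group. It was called once, lower with ASO 445236 than in WT (-0.94, adjusted p = 0.0237). That call was lost without ASO 445236 replicate 2 or 3 or WT replicate 2, 3 or 4 (smallest difference -0.67, highest adjusted p = 0.0916). Against WT, Stmn2 stood at -0.64 with saline (adjusted p = 0.0701) and -0.66 with ASO 190401 (adjusted p = 0.11). Of all genes 10.5%, 9.87% and 26.7% were called with ASO 445236, ASO 190401 and saline against WT. The neurofilament genes Nefm and Nefh, Prph and Snap25 were above background on 0 of 16 arrays, and Nefl and Tubb3 on 1.

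Within groups, Mbp varied from array to array together with Fa2h, and the other tested myelin genes gave lower r values. After subtraction of group means over 16 arrays, the deviations of Mbp ILMN_2737200 correlated with those of Fa2h, which makes the hydroxylated lipids of myelin (r = 0.80, rho = 0.83), Mag, an adhesion protein of the inner myelin wrap (r = 0.59, rho = 0.61), Drp2 (r = 0.58, rho = 0.63) and Pmp2, a myelin lipid carrier (r = 0.58, rho = 0.56), but not with Cnp (r = -0.15, rho = -0.026) or Nfasc (r = -0.13, rho = -0.053). Pmp22 ILMN_1228535 followed Mbp at r = 0.57 (rho = 0.41), but at 0.16 without the 2 arrays farthest from the median of Mbp, and at -0.07 and 0.81 within the 2 chips, so that relation rests on few arrays. The relation with Fa2h held at 0.71 without the 2 farthest arrays, and at 0.48 and 0.98 within the chips, and that with Mag at 0.68, 0.64 and 0.57. For Drp2 the same checks gave 0.42, 0.22 and 0.84, and for Pmp2 they gave 0.32, 0.45 and 0.64. Pmp2 was above background on 7 of 16 arrays, so its r rests largely on background readings. The 95th percentile of r with Mbp over all genes was 0.67, and of these 6 myelin genes Fa2h was the one above it.

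**Figure D4:**
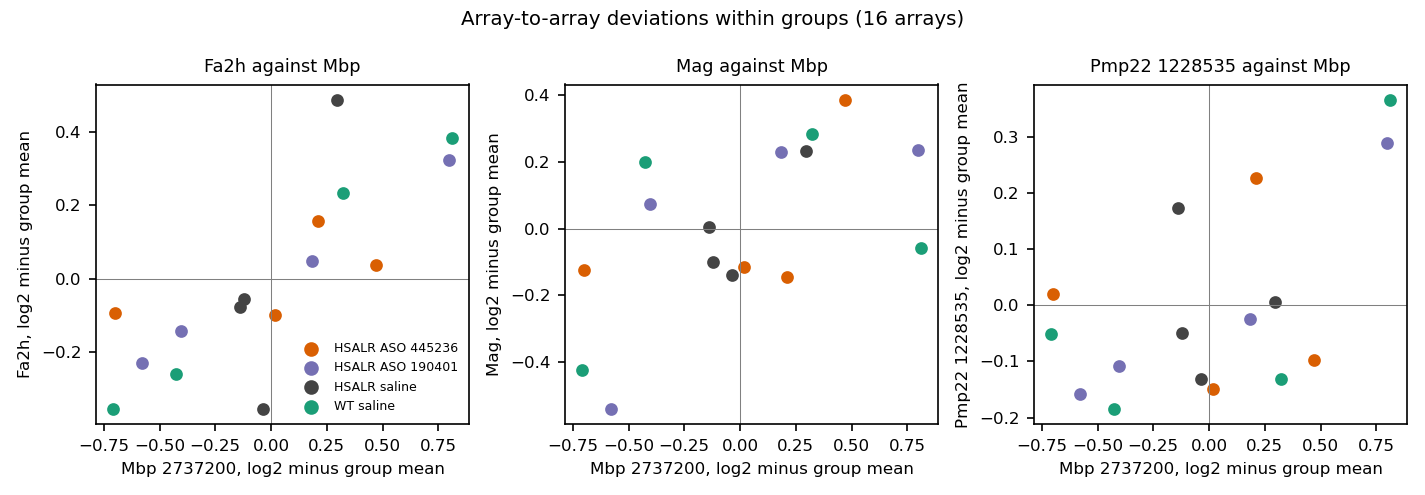
Deviation of each array from its group mean (log2) for Fa2h, Mag and Pmp22 ILMN_1228535 on the vertical axes against Mbp ILMN_2737200 on the horizontal axis; each point is an array (16), coloured by group. Points for Fa2h run from lower left to upper right, whereas for Pmp22 the 2 arrays at the upper right, 1 of WT and 1 of ASO 190401, stand apart from the rest.

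Genes not tied to myelin followed Mbp as closely as Fa2h did. The endothelial markers Flt1 (r = 0.83) and Cdh5 (r = 0.82) were among them, and the highest of 8704 genes ranked were Dtx3 (r = 0.95), Dennd3 (r = 0.94), Prkx (r = 0.94), Myh11, a smooth muscle myosin (r = 0.93), and Rdh5 (r = 0.93), each over 16 arrays. The other endothelial markers tested ran from 0.16 (Pecam1) to 0.76 (Esam), with Tie1 at 0.33. Of the adipocyte markers, Adipoq (r = -0.79), Lep (r = -0.58) and Cidec (r = -0.57) ran the other way. Lpl stood at -0.11 and Plin4 at 0.37. For Pmp22 ILMN_1228535 the closest were Rab14 (r = 0.89) and Dnajc17 (r = 0.89), and for Egr2 they were Olfr846 and Sorcs3 (r = 0.83 each). Arrays share chip, RNA input and the make-up of the muscle piece taken, and these r values were the highest among many.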

How the data were processed

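Expression was measured in total RNA of mouse quadriceps (100 ng per sample, biotin-labelled, per the labels). Each of 25697 probes has an intensity and a detection p-value on each of 16 arrays in the deposited non-normalized table, per the file headers. On each array 6907 to 7499 of the deposited intensities were below 0; background had thus been subtracted, by a method not given in the sources used here. The authors' deposited processed matrix of normalized intensity served as an alternative (affy is the tool listed per the submitters' processing notes). Of the cells read, 60 were not numbers and were treated as missing, 0 of them for the genes reported. Probes were named through GEO's platform annotation (23978 with 1 gene, 1719 unnamed here), with RefSeq symbols by gene identifier (23962 probes matched).

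In R 4.3.3 with limma 3.58.1, the deposited intensities were corrected by normexp from the detection p-values (offset 16), quantile normalized and log2-transformed. The 12364 probes detected (p under 0.05) on 4 or more arrays were tested. One mean per group was fitted (12 residual degrees of freedom; eBayes with intensity trend), with two-sided tests and Benjamini-Hochberg adjustment over all 12364 probes in each of 6 comparisons. Lists were counted by the brightest tested probe of each gene (8725 genes). The text names, per list and comparison, up to 6 called genes (2 for other cell types) with the largest difference, or the 2 with the smallest p where none was called, and always the genes studied, Ngfr and Acta1; genes named beyond this were chosen after their values were seen. A fold against a group with no array above background is a lower bound. On simulated data for HSALR saline minus WT (12340 probes), the fit called 2 of 50 probes changed 1.2-fold, 26 of 50 at 1.5-fold, 42 of 50 at 2-fold and 50 of 50 at 4-fold, with 6 false calls. The simulation changed only these probes and drew independent noise for each probe, without a chip effect. In the data 25.9% of probes were called in this comparison, so the simulated counts do not give its rates of missed or false calls.

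The genes studied, the lists and the tests were chosen with earlier results of these data known. Alternatives were a floor of 16, an offset of 50, the processed matrix, median scaling, no filter and a stricter filter. Others were the brightest probe of each gene alone, a mean over the probes of a gene, no trend, robust fitting, chip position, the compared groups alone, and leaving out each array. Promoter sequences come from RefSeq (GRCm38.p6).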

Additional observations from a re-analysis of the deposited data

Results flagged for a closer look

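For Mbp probe ILMN_3011353, ASO 445236 replicate 3 lay below its group, at a log2 level of 5.67 against 5.95 to 5.98 for the other 3 arrays. For the same probe ASO 190401 replicate 4 lay above its group, at 5.70 against 5.16 to 5.24. Each gap exceeded Dixon's 95% critical value for 4 samples, in 2 of 20 groups examined, where chance gives about 1 in 20.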

How the results depend on the processing

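Pmp22 ILMN_1228535 stayed lower than WT and called under every alternative run, except with ASO 445236 under median scaling (-0.36, or -0.50 relative to the median of all probes; adjusted p = 0.0988); the range for HSALR saline minus WT was -0.99 to -0.78. ILMN_2661299 also stayed lower than WT and called wherever it was tested. It gave no value of its own under the stricter filter, with the brightest probe alone or in the mean over the probes of a gene. Its difference between ASO 445236 and saline turned positive in the authors' deposited matrix (0.15), under median scaling (0.026) and with chip position (0.05), and ran from -0.13 to 0.082 when arrays were left out. For ILMN_1228535, ASO 445236 minus saline was called under median scaling (0.55) and with only the 2 groups fitted (0.33), and ASO 190401 minus saline turned to -0.12 as a mean of both probes and ran from -0.084 to 0.070 without single arrays. The Mbp ILMN_2737200 call for ASO 190401 minus WT (-1.14) was lost without the trend (adjusted p = 0.051), with robust fitting (adjusted p = 0.0705), with only the groups compared (adjusted p = 0.0787) and without some arrays (-1.40 to -0.87), and its ASO 445236 minus saline turned to 0.14 under median scaling (-0.02 relative to the median of all probes), 0.24 as a mean of probes, and -0.22 to 0.17 without single arrays. The Mbp ILMN_3011353 call for ASO 445236 minus saline was lost with no filter (0.54, adjusted p = 0.112) and with chip position (0.49, adjusted p = 0.0773), and ran from 0.50 to 0.61 without single arrays. For this probe ASO 190401 minus saline turned to 0.33 in the authors' deposited matrix and ran from -0.16 to 0.030, and the oligos differed by 0.52 to 0.70, called only without ASO 190401 replicate 4. Egr2 with ASO 190401 minus saline ran from -0.20 to 0.084, and the within-group r between the Pmp22 probes from -0.18 to 0.28. Acta1 in HSALR saline minus WT turned to 0.010 under median scaling. In the same comparison Egr3 turned to -0.33 in the authors' deposited matrix and ran from -0.024 to 0.25 without single arrays, and Egr1 from -0.39 to 0.46. At a detection p under 0.01, Egr2 was above background on 10 of 16 arrays, Mbp ILMN_3011353 on 4 and Pmp22 ILMN_2661299 on 5. Median scaling called 2320, 2957, 2045 and 2571 probes for ASO 445236 minus saline, ASO 190401 minus saline, ASO 445236 minus WT and ASO 190401 minus WT, against 1496, 1716, 1202 and 1129; it moved the median of all probes to 0.16, 0.17, 0.14 and 0.17, and 85.4%, 86.4%, 88.6% and 85.8% of calls were higher, against 50.3%, 51.4%, 54.2% and 47.3%. With only the groups compared, 608 and 702 probes were called for ASO 445236 and ASO 190401 against WT. Without single arrays ASO 445236 against WT gave 663 to 1287 calls and the oligos 123 to 325, and the oligos gave 203 in the authors' deposited matrix against 313. The causes of these shifts were not tested. No paired analysis was possible because the labels number no replicates. Signals near background limit Egr2, Mbp ILMN_3011353, Pmp22 ILMN_2661299 and most of the further myelin genes tested.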
